A study of Mus musculus with 27 samples.

Results

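Inhibitors of the cyclin-dependent kinases (CDKs) and targets of the transcription factor p53 were followed through 10 genes, Cdkn1a, Cdkn1b, Cdkn2a, Cdkn2b, Cdkn2c, Trp53, Mdm2, Ccng1, Gdf15 and Phlda3. They were matched by symbol, with no measured value in the rule itself, but the list was chosen with earlier results of these data known. All 10 were found among the 54532 genes of the deposited expression table. The study excised 40% of the tibialis anterior, a muscle of the lower leg, from 8-week-old male C57BL/6 mice, an injury known as volumetric muscle loss, and sequenced polyadenylated RNA from the explanted muscle. Its methods describe the excision as bilateral and its public record as unilateral, and whether any muscles came from the same mouse is not stated; each was treated as independent. The 5 groups were uninjured muscle (5 samples) and muscle taken 3 days (5 samples), 7 days (6 samples), 14 days (6 samples) and 21 days (5 samples) after excision, 27 samples in all, each group from C57BL/6 mice. Every library held the markers of the labelled tissue, with Acta1 the most abundant of 8 muscle fibre markers in all groups.

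CDKs drive cells through division, and their inhibitors stop it: the Cip/Kip proteins p21 (Cdkn1a) and p27 (Cdkn1b) bind several cyclin-CDK complexes, while the INK4 proteins (Cdkn2a, Cdkn2b, Cdkn2c) bind the kinases that work with D-type cyclins. The transcription factor p53 (Trp53) is held low by the ubiquitin ligase Mdm2 and, when stress frees it, switches on Cdkn1a, Mdm2 itself, cyclin G1 (Ccng1), the Akt inhibitor Phlda3 and the secreted stress factor Gdf15. In muscle, p21 is known for its part in taking myoblasts out of the cell cycle as they differentiate.

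Levels are given as FPKM, fragments scaled to the length of the gene and to a total for the library. The totals behind the deposited values were not those of the counted reads: they were 0.747 to 1.48 times as large, with a mean of 0.782 in uninjured muscle and of 1.25, 1.18, 1.04 and 0.897 at days 3, 7, 14 and 21, so levels compared between groups depend on this scale. Differences were tested with limma on log2(FPKM + 1), with all 27 samples in one fit and p-values adjusted over the 14630 genes whose FPKM was 0.5 or more in no fewer than 5 samples. A gene is called higher or lower below where its adjusted p was under 0.05, all tests were two-sided, and ± gives the standard deviation (SD) of a group. All 10 genes passed the filter, Cdkn2a and Gdf15 through injured muscles alone, so a high level after injury was part of what brought them into the test. The same holds of Cdkn3, Ckap2, Ccna2, Cdk1, E2f1, E2f8, Mki67 and Birc5 among the genes named later. Libraries held 14376395 to 24436763 reads (median 17398586), recovered from FPKM and gene length.

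Libraries did not separate cleanly by day. By distance to the mean profile of each group, 9 of 27 lay nearer to another group than to their own: replicate 5 of day 3 lay nearer to day 7, replicate 3 of day 7 nearer to uninjured muscle, replicate 5 of day 7 nearer to day 3, replicate 6 of day 7 nearer to day 21, replicate 1 of day 14 nearer to day 7, replicates 3 and 6 of day 14 nearer to day 21, and replicates 3 and 5 of day 21 nearer to day 14. Runs without these 9 libraries were added after seeing the data. The 9 were picked from the same expression values for lying far from their group, so p-values from those runs carry no separate support. Mitochondrial genes took 35.1% of the reads in replicate 5 of day 21, 28.5% in replicate 5 of day 14 and 28.4% in replicate 6 of day 7. Rescaling every sample to a common sum (TPM) brought the median log2 fold change of all tested genes against uninjured muscle to 0.62, 0.58, 0.36 and 0.15 at days 3, 7, 14 and 21. Of the genes called at day 3, 3417 were higher and 2899 lower on the deposited scale, against 6942 and 324 after TPM rescaling. Quantile normalization gave 2774 higher and 3734 lower at day 3, and the 4 genes of the 10 called lower at day 3 on the deposited scale were called lower with it as well. Statements that a gene was lower therefore depend on the scale, and for those of the 10 called lower against uninjured muscle the value relative to that median is given.

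At day 3, limma called 5 of the 10 genes higher than in uninjured muscle, namely Cdkn1a, Cdkn2a, Cdkn2c, Trp53 and Gdf15, and 4 were called lower, namely Cdkn1b, Mdm2, Ccng1 and Phlda3, of which none was called lower after TPM rescaling. Among all tested genes 23.4% were called higher and 19.8% lower in that comparison. At day 7 the 4 genes called higher were Cdkn1a, Cdkn2a, Cdkn2c and Trp53, where 15% of all genes were, and Ccng1 was the 1 gene called lower, where 14.4% were; that call was lost after TPM rescaling. At day 14, Cdkn1a, Cdkn2a and Trp53 were called higher and none of the 10 lower, against 9.02% and 11.3% of all genes. By day 21, Cdkn1a was the 1 gene still called higher and none was called lower, against 1.74% and 1.69% of all genes. The Cdkn1a call at day 21 was lost with TPM, quantile normalization or no filter. The median log2 fold change of the 10 genes was 0.28, 0.34, 0.18 and 0.06 at the 4 times, and that of all tested genes was 0.01, 0.03, 0.02 and 0.01. These 4 comparisons share the same 5 uninjured muscles. The shares of all genes given here are also those beside which the counts of every list below stand.

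**Figure D1:**
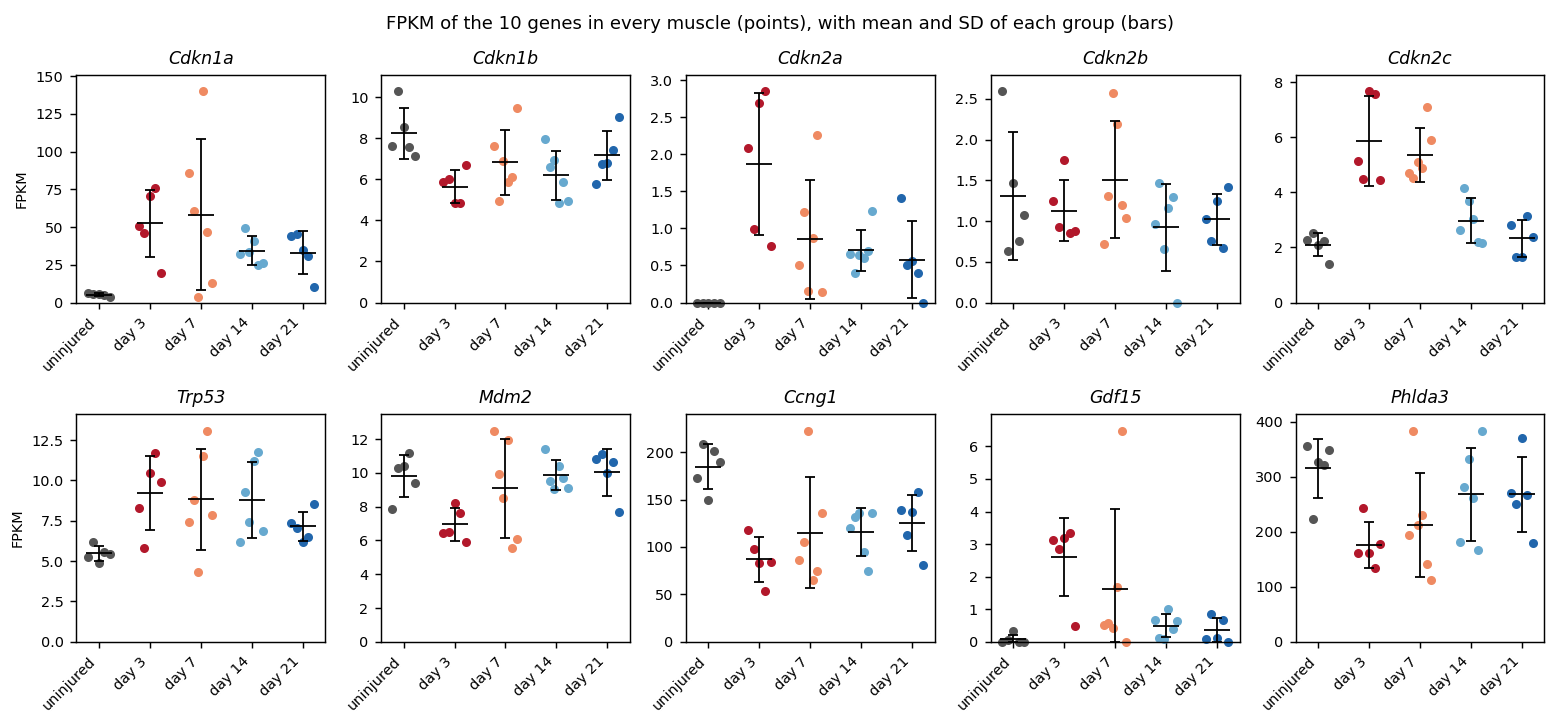
FPKM of the 10 genes in every muscle (points) by group, with the group mean (horizontal bar) and SD (error bars, drawn no lower than 0); each panel has its own axis. Cdkn1a lay above the uninjured range in all muscles but replicate 3 of day 7 (3.62), and Ccng1 and Phlda3 had the highest levels of the 10 in every group.

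Cdkn1a, which encodes p21 and lies on chromosome 17 (ENSMUSG00000023067, GRCm38 29090976 to 29100727, plus strand), was low in uninjured muscle, at 6.32, 5.43, 5.52, 5.12 and 3.90 FPKM (5.26 ± 0.877, n = 5). At day 3 its FPKM was 50.5, 46.1, 70.6, 75.7 and 19.7 (52.5 ± 22.3, n = 5). Every day 3 muscle lay above every uninjured muscle, with replicate 5, a library nearer to day 7, the lowest. At day 7 FPKM ran from 3.62 through a median of 53.5 to 140 (58.2 ± 50.1, n = 6), the widest spread of any group. The low ends were replicate 3, just below every uninjured muscle, and replicate 6 at 13.1, the libraries that lay nearer to uninjured muscle and to day 21. The 6 muscles of day 14 had FPKM from 24.8 through a median of 32.6 to 49.5 (34.4 ± 9.37), all above the uninjured ones. Muscles of day 21 had 43.8, 45.4, 34.7, 31.0 and 10.1 FPKM (33.0 ± 14.2, n = 5), again all above the uninjured ones and with replicate 5 the lowest.

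Mean Cdkn1a was 9.99 times the uninjured mean at day 3 (log2 fold change 2.97, standard error (SE) 0.60, limma adjusted p = 0.000313, 5 of 5 muscles above every uninjured one). At day 7 the ratio of means was 11.1 (log2 fold change 2.55, SE 0.57, limma adjusted p = 0.00225, 5 of 6 above), and the log2 fold change was 3.87 without the libraries nearer to another group. Day 14 gave a ratio of 6.54 (log2 fold change 2.47, SE 0.57, limma adjusted p = 0.00437, 6 of 6 above). At day 21 the ratio was 6.28 (log2 fold change 2.30, SE 0.60, limma adjusted p = 0.0317, 5 of 5 above). The day 21 call was lost without any 1 of the 5 uninjured muscles or without replicate 1, 2 or 4 of day 21 (limma adjusted p from 0.0529 to 0.0924), and with TPM (log2 fold change 2.55), quantile normalization (2.23) or no filter. Leaving out the libraries nearer to another group gave a limma adjusted p of 3.87e-06. Those libraries were picked from the same expression values and include replicate 5, the lowest of day 21, so this value is no separate support. An unconfirmed antisense gene, AC167363.2, shares 273 exonic bases with Cdkn1a, and since the libraries are unstranded its reads cannot be told apart from those of Cdkn1a there; counted on its own it had an FPKM of 1.5 at most.

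At days 3, 7 and 21 Cdkn1a was lowest in the libraries that were also lowest in markers of muscle progenitors, and at day 14 it was not. The 6 satellite cell and myoblast markers, with Myog the most abundant and none at 0 throughout, summed to 20.9, 17.7, 26.9, 25 and 24.2 FPKM in the uninjured muscles. Their sums were 448, 332, 439, 453 and 127 at day 3, then 202, 152, 26.1, 239, 264 and 26.6 at day 7. At day 14 they were 189, 195, 145, 154, 190 and 105, and at day 21 they were 107, 141, 104, 106 and 43.9. Replicate 5 of day 3, replicates 3 and 6 of day 7 and replicate 5 of day 21 were the lowest of their groups by either measure, whereas at day 14 Cdkn1a was lowest in replicate 5 and the marker sum in replicate 6. Of the 6 markers, 5, 4, 4 and 3 were called higher at the 4 times in turn, led at day 3 by Mymk (log2 fold change 5.77), Myog (5.63) and Myh3 (5.16). At day 21 Myog (3.499), Mymk (3.00) and Myod1 (1.37) were called, and TPM rescaling left 1 of the 3, Mymk. With voom, neither Myog nor Mymk was called at day 21. The Myod1 call was lost without uninjured replicate 1 or 2 or day 21 replicate 1 or 2, and with no filter. Their part in the Cdkn1a result was not tested. In these bulk samples, fewer cells of a type and less RNA per cell cannot be told apart.

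Cdkn1b, which encodes p27 (ENSMUSG00000003031, chromosome 6, 134920401 to 134925513, plus strand), had 7.64, 10.3, 8.56, 7.57 and 7.14 FPKM in uninjured muscle (8.24 ± 1.25, n = 5) and 5.84, 6.02, 4.85, 4.84 and 6.68 at day 3 (5.65 ± 0.796, n = 5). All 5 day 3 values lay below all uninjured ones. The mean was 31.5% lower (log2 fold change -0.47, SE 0.15, limma adjusted p = 0.0116), whereas after TPM rescaling the change was 0.26, which is -0.36 relative to the median of all genes, and no longer called. At the later times FPKM ran from 4.94 to 9.48, 4.85 to 7.96 and 5.78 to 9.03, overlapping the uninjured range, and at days 7 and 14 reaching down to about the lowest level of day 3. None of these passed the test, with a limma adjusted p of 0.179 at day 7, 0.0651 at day 14 and 0.533 at day 21 (4 of 6, 5 of 6 and 3 of 5 muscles below every uninjured one). Leaving out replicate 1 of day 14 brought that comparison past the threshold (limma adjusted p = 0.0360), as did leaving out the libraries nearer to another group at day 7 (0.0470) and day 14 (0.0249).

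Cdkn2a gives both p16INK4a and, in another reading frame, p19ARF, which binds Mdm2; a gene total from unstranded reads cannot separate them (ENSMUSG00000044303, chromosome 4, 89274471 to 89294653, minus strand). It had 0 reads in all 5 uninjured muscles. Day 3 muscles had 51, 19, 83, 76 and 19 reads, or 2.09, 0.991, 2.68, 2.85 and 0.762 FPKM (1.87 ± 0.957, n = 5). Reads were found in every muscle of days 3, 7 and 14, and in 4 of 5 at day 21, but never in many. At day 7 FPKM ran from 0.137 (2 reads) through a median of 0.688 to 2.25 (92 reads), with replicate 5, nearer to day 3, the highest. At day 14 it ran from 0.397 through a median of 0.645 to 1.23, on 8 to 17 reads. At day 21 it was 1.42, 0.513, 0.560, 0.397 and 0 FPKM.

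Against the floor that 3 reads over the uninjured group would give, 0.0370 FPKM, mean Cdkn2a was at least 50.7-fold higher at day 3 (limma adjusted p = 7.31e-05, 5 of 5 muscles above every uninjured one). It was at least 23.1-fold higher at day 7 (limma adjusted p = 0.0167, 6 of 6) and at least 19-fold higher at day 14 (limma adjusted p = 0.0289, 6 of 6). At day 21 the bound was 15.6-fold (9.94-fold without replicate 1) and the call was missed (limma adjusted p = 0.184, 4 of 5), although it passed without the libraries nearer to another group (0.0274) and with a pseudocount of 0.1. Such floors cover counting error only. Cdkn2a passed the filter through injured muscles alone, so these p-values and counts of muscles are no separate support for a high level after injury. With no filter the day 3 and day 7 calls stood. The day 7 call was lost without replicate 5 of day 7 (limma adjusted p = 0.0526), and the day 14 call without uninjured replicate 1, 2, 4 or 5 or day 14 replicate 5 or 6 (0.0514 to 0.0575) and with no filter.

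Cdkn2b, which encodes p15INK4b next to Cdkn2a (ENSMUSG00000073802, chromosome 4, 89306299 to 89311039, minus strand), stayed between 0 and 2.59 FPKM in all 27 muscles, on 0 to 69 reads. Group means were 1.31 ± 0.789 in uninjured muscle, then 1.13 ± 0.379, 1.51 ± 0.718, 0.925 ± 0.533 and 1.02 ± 0.316 by day. No time differed from uninjured muscle by limma (adjusted p from 0.424 to 0.830), and the smallest difference that could have been detected was not tested.

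Cdkn2c, which encodes p18INK4c (ENSMUSG00000028551, chromosome 4, 109660876 to 109667189, minus strand), had 2.26, 2.51, 2.09, 2.24 and 1.40 FPKM in uninjured muscle (2.10 ± 0.420, n = 5). At day 3 it had 5.14, 4.48, 7.66, 7.58 and 4.46 FPKM (5.87 ± 1.63, n = 5), and at day 7 from 4.51 through a median of 5.00 to 7.09 (5.36 ± 0.971, n = 6). Every muscle of days 3 and 7 lay above every uninjured muscle, replicates 3 and 6 of day 7 included. At day 14 FPKM ran from 2.15 through a median of 2.83 to 4.15 (2.97 ± 0.812, n = 6), overlapping the uninjured range, and at day 21 it was 2.80, 1.65, 1.67, 3.15 and 2.37 (2.33 ± 0.670, n = 5). The mean was 2.79 times the uninjured mean at day 3 (log2 fold change 1.13, SE 0.17, limma adjusted p = 1.58e-05, 5 of 5 above) and 2.55 times at day 7 (SE 0.16, limma adjusted p = 0.000101, 6 of 6 above). At day 14 the change was 0.34 (limma adjusted p = 0.134, 4 of 6 above) and at day 21 it was 0.09 (limma adjusted p = 0.810, 2 of 5 above). The day 3 and day 7 calls held in every alternative run.

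The 3 other CDK inhibitor genes listed, the Cip/Kip gene Cdkn1c (p57), the INK4 gene Cdkn2d (p19INK4d) and the CDK-directed phosphatase Cdkn3, were all called higher at day 3, where 23.4% of all genes were. They were called higher after TPM rescaling too, but so were 6942 of all 14630 genes, whose median log2 fold change was then 0.62. Cdkn1c had 16.1, 14.4, 15.7, 15.7 and 13.1 FPKM in uninjured muscle and 72.1, 47.6, 59.0, 63.7 and 88.2 at day 3, with no overlap. Its log2 fold change was 2.04 at day 3 (SE 0.27, limma adjusted p = 3.08e-06), 1.20 at day 7 (limma adjusted p = 0.00152) and 0.97 at day 14 (limma adjusted p = 0.00999), where every muscle lay above every uninjured one. At day 21 the change was 0.57 and was not called (limma adjusted p = 0.235, 4 of 5 above). Mean Cdkn3 was 0.0622 FPKM in uninjured muscle, on 11 reads in all, and 2.16 at day 3 (log2 fold change 1.52, limma adjusted p = 6.79e-06, 5 of 5 above). Mean Cdkn2d was 9.16 and 14.3 FPKM (log2 fold change 0.62, limma adjusted p = 0.0108, 5 of 5 above). At days 7 and 14, Cdkn1c was the 1 gene of the 3 called higher, and at day 21 none was. Cdkn2d at day 7 was called higher after TPM rescaling, where 6372 of all 14630 genes were. Cdkn1c at day 21 was called with the 2 groups alone in the fit (limma adjusted p = 0.0336). Cdkn3 at day 14 was called in 4 of 12 other alternatives: the 2 groups alone, a pseudocount of 0.1, voom, and without the libraries nearer to another group.

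Trp53 itself (ENSMUSG00000059552, chromosome 11, 69580359 to 69591873, plus strand) had 5.27, 6.18, 4.91, 5.54 and 5.47 FPKM in uninjured muscle (5.47 ± 0.463, n = 5) and 8.29, 5.79, 10.5, 11.7 and 9.89 at day 3 (9.23 ± 2.28, n = 5). All day 3 muscles but replicate 2 lay above the uninjured range. FPKM ran from 4.31 through a median of 8.32 to 13.1 at day 7 (8.82 ± 3.11, n = 6) and from 6.16 through 8.34 to 11.8 at day 14 (8.78 ± 2.35, n = 6). At either time 5 of 6 muscles lay above every uninjured one, and replicate 3 of day 7 lay below them. Day 21 muscles had 7.38, 7.06, 6.21, 6.51 and 8.57 FPKM (7.15 ± 0.918, n = 5), all above the uninjured ones by a small margin.

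The mean of Trp53 was 1.69 times the uninjured mean at day 3 (log2 fold change 0.63, SE 0.21, limma adjusted p = 0.0153), 1.61 times at day 7 (0.54, SE 0.20, limma adjusted p = 0.0417) and 1.60 times at day 14 (0.56, SE 0.20, limma adjusted p = 0.0441). At day 21 the log2 fold change of 0.33 was not called (limma adjusted p = 0.391), although 5 of 5 muscles lay above. The day 3 call was lost without replicate 4 of day 3 (limma adjusted p = 0.0521). The day 7 call was lost without any uninjured muscle or replicate 2, 4 or 5 of day 7 (0.0501 to 0.118), the day 14 call without any uninjured muscle or replicate 2, 4 or 5 of day 14 (0.0555 to 0.115), and either with no filter. The day 7 call was also lost with the 2 compared groups alone in the fit and without replicate 5 of days 3 and 7, and the day 14 call with voom. The p53 protein, known to be regulated largely after transcription, was not measured.

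Mdm2, at once a p53 target and the ligase that removes p53 (ENSMUSG00000020184, chromosome 10, 117688875 to 117710758, minus strand), had 7.87, 10.3, 10.4, 11.2 and 9.42 FPKM in uninjured muscle (9.83 ± 1.26, n = 5). At day 3 it had 6.45, 6.52, 8.25, 7.64 and 5.90 FPKM (6.95 ± 0.962, n = 5), and 4 of the 5 lay below every uninjured muscle. The mean was 29.3% lower (log2 fold change -0.45, SE 0.16, limma adjusted p = 0.0286), but TPM rescaling turned the change to 0.31, -0.31 relative to the median of all genes, and ended the call. It was also lost without uninjured replicate 2, 3 or 4 or day 3 replicate 1, 2 or 5 (limma adjusted p from 0.0536 to 0.0699). Day 7 FPKM ran from 5.55 through a median of 9.20 to 12.5, day 14 from 9.07 through 9.60 to 11.4, and day 21 muscles had 10.8, 11.1, 9.97, 10.6 and 7.67. These later groups overlapped the uninjured range, with limma adjusted p of 0.50, 0.974 and 0.949.

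Of 12 listed regulators and relatives of p53, 8 passed the filter, and none was called higher at day 3. The 2 called lower were the ubiquitin ligases Cop1 (log2 fold change -0.77, limma adjusted p = 8.04e-05, 5 of 5 below) and Rchy1 (-0.39, limma adjusted p = 0.04999, 4 of 5 below). After TPM rescaling 2 of the 8 were called higher and none lower, where 6942 and 324 of all 14630 genes were, and the Rchy1 call was lost without 8 of the 10 muscles compared, uninjured replicates 1 to 5 and day 3 replicates 3, 4 and 5 (limma adjusted p from 0.0559 to 0.114). The list gave 1 higher and 2 lower at day 7, and 2 higher and 2 lower at day 14. On the deposited scale, 23.4% of all genes were called higher and 19.8% lower at day 3. These shares were 15% and 14.4% at day 7, 9.02% and 11.3% at day 14, and 1.74% and 1.69% at day 21. At day 21, Mdm4, the Mdm2 relative that binds p53, was called higher (log2 fold change 0.95, SE 0.19, limma adjusted p = 0.00778, 5 of 5 above) and Cop1 lower (-0.47, limma adjusted p = 0.0489, 5 of 5 below), both lost after TPM rescaling. The Cop1 call at day 21 was also lost without any of the 5 uninjured muscles or replicate 1, 2, 3 or 5 of day 21 (limma adjusted p from 0.0595 to 0.122).

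Ccng1, which encodes cyclin G1 (ENSMUSG00000020326, chromosome 11, 40748552 to 40755311, minus strand), went the other way from Cdkn1a. It was abundant in uninjured muscle, at 173, 209, 149, 201 and 190 FPKM (184 ± 23.8, n = 5). At day 3 it had 118, 97.7, 82.9, 53.2 and 83.9 FPKM (87.1 ± 23.5, n = 5), every value below every uninjured one. At day 7 FPKM ran from 65.5 through a median of 95.8 to 223 (115 ± 58.4, n = 6), the highest being replicate 3, the library nearer to uninjured muscle. Day 14 muscles ran from 75.1 through 126 to 136 FPKM (115 ± 25.2, n = 6), all below the uninjured ones, and day 21 muscles had 139, 113, 137, 158 and 81.5 FPKM (126 ± 29.5, n = 5), 4 of 5 below.

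The mean of Ccng1 was 52.8% lower at day 3 (log2 fold change -1.11, SE 0.26, limma adjusted p = 0.00146), and after TPM rescaling the change was -0.29, -0.91 relative to the median of all genes, and not called. At day 7 the mean was 37.6% lower (log2 fold change -0.80, SE 0.25, limma adjusted p = 0.0204, 5 of 6 below), which is -0.65 relative to the median after TPM rescaling, a call lost without replicate 4 (0.0614) or 5 (0.0549) of day 7, without replicate 5 of days 3 and 7, with TPM or quantile normalization, and with only the 2 groups in the fit. Day 14 fell short of the threshold (-0.69, SE 0.25, limma adjusted p = 0.0530, 6 of 6 below) and passed it without replicate 3 or 6 of day 14 (0.0472 for either) and in 7 of 12 other alternatives: a pseudocount of 0.1, an FPKM minimum of 1, no trend, the 2 groups alone, either replicate block, and without the libraries nearer to another group. Day 21 was not called (-0.57, limma adjusted p = 0.225).

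Phlda3, which encodes a pleckstrin homology protein that competes with Akt at the membrane (ENSMUSG00000041801, chromosome 1, 135766119 to 135769136, plus strand), had the highest level of the 10. Uninjured muscles had 355, 224, 328, 322 and 350 FPKM (316 ± 53.3, n = 5), and day 3 muscles 161, 244, 161, 135 and 178 (176 ± 41.3, n = 5). All day 3 muscles but replicate 2 lay below the uninjured range, whose own low value was its replicate 2. The mean was 44.3% lower (log2 fold change -0.85, SE 0.27, limma adjusted p = 0.0134), and after TPM rescaling the change was -0.03, -0.65 relative to the median, and not called. FPKM ran from 112 through a median of 203 to 383 at day 7 and from 168 through 272 to 384 at day 14, and was 271, 251, 371, 267 and 180 at day 21. These overlapped the uninjured range, with limma adjusted p of 0.0560 at day 7, 0.465 at day 14 and 0.645 at day 21 (4 of 6, 2 of 6 and 1 of 5 muscles below every uninjured one). Day 7 passed the threshold without uninjured replicate 2 (limma adjusted p = 0.0398) or replicate 2 of day 7 (0.0114), and with no variance trend or with voom.

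Gdf15, a secreted member of the TGF-beta superfamily (ENSMUSG00000038508, chromosome 8, 70629393 to 70632456, minus strand), was nearly absent from uninjured muscle, at 0, 0.0627, 0.322, 0 and 0 FPKM on 9 reads in all. Day 3 muscles had 3.13, 2.84, 3.19, 3.34 and 0.482 FPKM (2.60 ± 1.20, n = 5), on 19 to 156 reads. Each lay above every uninjured muscle, and replicate 5 lay far under the rest. At day 7 FPKM ran from 0 through a median of 0.540 to 6.48 (1.61 ± 2.45, n = 6), the highest value of the series being replicate 5, with 418 of the 551 reads of that group. Day 14 ran from 0.0864 through 0.525 to 1.01 FPKM, and day 21 had 0.0960, 0.852, 0.129, 0.683 and 0.

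The mean of Gdf15 at day 3 was 33.7 times the uninjured mean (log2 fold change 1.65, SE 0.37, limma adjusted p = 0.000810), a ratio that is 166 without uninjured replicate 3, which held 7 of the 9 uninjured reads. At day 7 the log2 fold change of 0.91 fell just short (SE 0.35, limma adjusted p = 0.0515, 5 of 6 above), and it passed without replicate 1, 2, 3 or 6 of day 7 (0.0155 to 0.0496). It also passed in 7 of 13 other alternatives: both smaller pseudocounts, an FPKM minimum of 1, TPM, replicate number as a block, voom, and without the libraries nearer to another group. Without replicate 5 of day 7 the change was 0.54, not called. Days 14 and 21 were not called (limma adjusted p of 0.386 and 0.702, with 4 of 6 and 2 of 5 muscles above every uninjured one). Gdf15 passed the filter through injured muscles alone, so its p-values are no separate support for a high level after injury. With no filter its day 3 call stood.

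Macrophage markers were far higher at day 3, when 5 of the 10 genes were called higher. The 8 macrophage markers, with Lyz2 the most abundant and none at 0 throughout, summed to 25.2, 31.3, 23.9, 26.6 and 36.0 FPKM in uninjured muscle and to 1700, 1271, 2336, 2510 and 447 at day 3. They summed to 315, 325, 169, 564, 2426 and 63.1 at day 7, to 112, 138, 60.2, 110, 139 and 82.1 at day 14, and to 66.0, 80.3, 76.9, 47.6 and 63.4 at day 21. Replicate 5 of day 3, low in Gdf15 and Cdkn2a, had the lowest sum of its group, and replicate 5 of day 7, high in both, had the highest. The number called higher was 8 at day 3, then 7, 3 and 0 by limma, led at day 3 by Lyz2 (log2 fold change 5.77), Cd68 (5.53) and C1qa (5.11). Their part in the results for Cdkn2a, Cdkn2c and Gdf15 was not tested.

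Muscle fibre markers were lower on the deposited scale when Ccng1, Phlda3, Cdkn1b and Mdm2 were. The 8 markers, none at 0 in any group, summed to 87436, 89330, 98974, 83502 and 98334 FPKM in uninjured muscle and to 41954, 47798, 32266, 21617 and 63695 at day 3. They summed to 31274, 56914, 99602, 39300, 26906 and 90916 at day 7, to 42808, 68352, 69813, 59569, 48713 and 99414 at day 14, and to 93198, 78618, 72916, 105770 and 74700 at day 21. Replicate 3 of day 7 was the highest of its group in Ccng1 and in these markers, and replicate 5 of day 3 and replicate 6 of day 7, high in the markers, were the highest of their groups in Cdkn1b. Yet replicate 6 of day 7 was the lowest in Phlda3, and replicate 5 of day 3 the lowest in Mdm2. At day 3 the markers were highest in replicate 5, but Ccng1 was highest in replicate 1 (118 FPKM, against 83.9 in replicate 5). Phlda3 was highest in replicate 2 of day 3 (244 FPKM, against 178 in replicate 5). Of the 8, 6 were called lower at day 3, 3 at day 7, 1 at day 14 and none at day 21. Those of day 3 were led by Pvalb (log2 fold change -2.31), Myh4 (-1.94) and Tnnt3 (-1.57), and 3 of 8 remained called lower at day 3 after TPM rescaling. Quantile normalization ended the Tnnt3 call at day 3 (limma adjusted p = 0.551). Their part in the lower levels of Ccng1, Phlda3, Cdkn1b and Mdm2 was not tested.

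**Figure D2:**
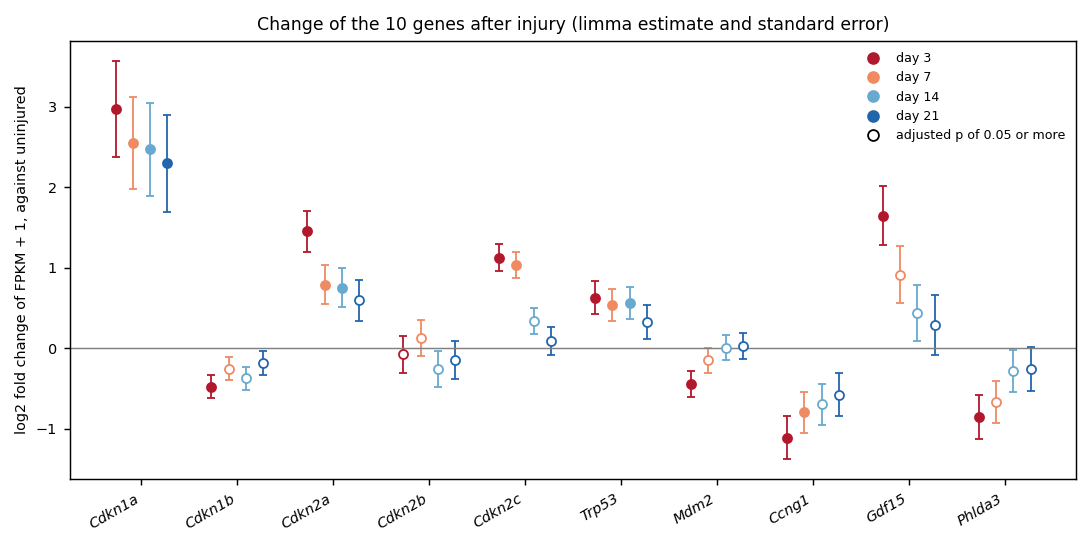
Log2 fold change of FPKM + 1 against uninjured muscle (vertical axis) for each of the 10 genes at days 3, 7, 14 and 21, with the limma SE; filled points passed an adjusted p of 0.05. Cdkn1a stays between 2.30 and 2.97 at all 4 times, while Cdkn2c falls from 1.13 at day 3 to 0.09 at day 21; the negative values of Cdkn1b, Mdm2 and Phlda3 hold on the deposited scale and reach 0.26, 0.31 and -0.03 at day 3 after TPM rescaling.

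Few genes were called between neighbouring times, and many more between day 3 and day 21; day 14 against day 3 and day 21 against day 7 were not tested. From day 3 to day 7, 7 of 14630 genes (0.0478%) were called by limma and none of the 10, with 2301 genes at an unadjusted p under 0.05 and 1 gene called by voom on recovered reads. Without replicate 5 of either day, 2265 genes were called, Cdkn2a (log2 fold change -1.01) and Gdf15 (-1.41) lower among them, and leaving out replicate 5 of day 7 alone was enough for the pair (limma adjusted p = 0.0114 and 0.00518). From day 7 to day 14, 49 genes (0.335%) were called, and Cdkn2c was lower, with all 6 day 14 values below all day 7 values and a mean 44.6% lower (log2 fold change -0.69, SE 0.16, limma adjusted p = 0.0475). That call was lost without any of 9 of the 12 muscles, day 7 replicates 1, 3, 4 and 5 and day 14 replicates 1, 3, 4, 5 and 6 (limma adjusted p from 0.0565 to 0.137), and in 11 other alternatives. In 1 of these, without the libraries nearer to another group, Cdkn1a was called lower instead (log2 fold change -1.26, limma adjusted p = 0.0499). From day 14 to day 21 limma called 0 genes (0%), with 909 at an unadjusted p under 0.05 and 0 by voom.

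At day 21 against day 3, 3 of the 10 genes were lower and 1 higher, where 16.2% and 9.23% of all genes were called lower and higher. Cdkn2c was 60.3% lower (log2 fold change -1.04, SE 0.17, limma adjusted p = 0.000138, 5 of 5 day 21 muscles below every day 3 muscle). Gdf15 was 86.5% lower (-1.36, SE 0.37, limma adjusted p = 0.00832, 3 of 5 below) and Cdkn2a 69.2% lower (-0.85, SE 0.25, limma adjusted p = 0.0150, 4 of 5 below). The Cdkn2a call was lost without replicate 3 or 4 of day 3 or replicate 5 of day 21 (limma adjusted p from 0.0504 to 0.0594). Mdm2 was higher (0.47, SE 0.16, limma adjusted p = 0.0339, 4 of 5 above every day 3 muscle) on the deposited scale and reversed to -0.10 after TPM rescaling, which brought the median of all genes to -0.49. The Mdm2 call was also lost without day 3 replicate 1, 2, 4 or 5 or day 21 replicate 1, 2, 3 or 4 (limma adjusted p from 0.0504 to 0.0740). After TPM rescaling Trp53 was called lower (-0.92, -0.43 relative to the median, limma adjusted p = 0.0317), which it was not on the deposited scale (-0.30, limma adjusted p = 0.293). Cdkn1a, by contrast, gave -0.68 between these days and was not called (SE 0.60, limma adjusted p = 0.431).

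On the FPKM scale the order of levels had a fixed top. Phlda3 was the most abundant of the 10 by mean in every group and Ccng1 the next, without overlap between this pair in uninjured muscle and at days 3, 14 and 21. In uninjured muscle Mdm2, Cdkn1b, Trp53, Cdkn1a, Cdkn2c, Cdkn2b, Gdf15 and Cdkn2a followed, where Mdm2 overlapped Cdkn1b, Trp53 overlapped Cdkn1a, Cdkn2c overlapped Cdkn2b, and Gdf15 overlapped Cdkn2a. Cdkn1a moved from the sixth place in uninjured muscle to the third in all 4 injured groups. At day 3 Trp53, Mdm2, Cdkn2c, Cdkn1b, Gdf15, Cdkn2a and Cdkn2b came after it, and at day 21 Mdm2, Cdkn1b, Trp53, Cdkn2c, Cdkn2b, Cdkn2a and Gdf15. At day 7 every neighbour in the order overlapped the next.

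Across the 27 samples, Ccng1 and Trp53 had the most negative Pearson correlation of any pair of the 10 on log2(FPKM + 1), at -0.84, and Cdkn2a and Gdf15 the most positive, at 0.81. Among all tested genes, those with the pattern nearest to Cdkn1a were Runx1 (r = 0.96), Chrna1 (0.94) and Tmem9 (0.93). Those nearest to Gdf15 were Hmox1 (0.95), Amz1 (0.95) and Slc9a3r1 (0.95), and those nearest to Ccng1 were Fsd2 (0.96), Wwp1 (0.96) and Fem1a (0.96). Cdkn2a was nearest to Spg21, Eif4a1 and Slc7a5 (0.92 each), and Cdkn2c to B3galnt1, Serpina3n and Tsku (0.88 each). Trp53 was nearest to U2af2 (0.88), Rasa3 (0.87) and Gatad2a (0.86), and Phlda3 to Nrap (0.88), Mb (0.87) and Actr8 (0.85). Mdm2 was nearest to Prkcq (0.83), Usf3 (0.81) and Zhx2 (0.78), Cdkn1b to Arhgap12 (0.82), Amer1 (0.82) and Pitpnm3 (0.81), and Cdkn2b to Polg2 (0.62), Fbxo34 (0.61) and Tmem199 (0.58). These are descriptions over samples that share their groups, and the 3 nearest of 14630 genes are high by selection.

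The split among the p53 targets led to the promoters, taken from RefSeq on GRCm38 as the 250 bases before each start, where all 10 genes were matched. The p53 consensus, a pair of half-sites of 10 bases with no spacer, was searched on both strands. With at most 1 mismatch it was found in 2 of the 14 windows of the 10 genes, those of Cdkn1a and Ccng1, and in 25 of 32817 promoter windows of all genes (0.0762%); at most 2 mismatches gave 216 windows (0.658%) and no further member. On the deposited scale Cdkn1a was called higher and Ccng1 lower at days 3 and 7, so the pair holding the match lay on opposite sides there. Neither Ccng1 call held after TPM rescaling (log2 fold change -0.29 and -0.07), and at days 14 and 21 Ccng1 was not called. The Cdkn1a match lies 51 to 32 bases before the upstream 1 of 2 starts (chr17:29090928-29090947), the window of the other holding none, and the Ccng1 match 195 to 176 bases before it (chr11:40755462-40755481), each with 1 mismatch, in capitals within 25 bases on either side, on the gene's own strand (plus, chr17:29090903-29090972; minus, chr11:40755437-40755506).
Cdkn1a: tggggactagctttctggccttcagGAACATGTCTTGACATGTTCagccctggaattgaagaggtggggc
Ccng1: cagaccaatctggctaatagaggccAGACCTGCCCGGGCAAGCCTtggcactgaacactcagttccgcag
A match describes letters in this window and does not show binding, and p53 sites elsewhere in these genes were not searched.

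The other p53 targets were more often called higher than lower. Of 28 further target genes, all tested, 14 were called higher and 4 lower at day 3, 11 and 1 at day 7, 6 and 2 at day 14, and 3 and 0 at day 21, with median log2 fold changes of 0.43, 0.29, 0.31 and 0.13; of all genes 23.4% were called higher and 19.8% lower at day 3. After TPM rescaling the day 3 counts were 21 higher and 1 lower, where 6942 and 324 of all 14630 genes were. Those with the largest increases at day 3 were the lipid transfer protein Pltp (2.10, limma adjusted p = 0.000188, 5 of 5 above), the growth arrest gene Gadd45a (1.80, limma adjusted p = 0.0209, 5 of 5) and the spindle protein Ckap2 (1.60, limma adjusted p = 3.35e-05, 5 of 5). The Gadd45a call at day 3 was lost without replicate 4 of day 3 (limma adjusted p = 0.0520). On the lower side were Tigar, a regulator of glycolysis (-1.61, limma adjusted p = 0.000683, 5 of 5 below), the nuclease Aen (-0.60, limma adjusted p = 0.0440, 3 of 5 below) and Ei24 (-0.49, limma adjusted p = 0.00827, 5 of 5 below). TPM rescaling ended the calls of Aen and Ei24 with their direction reversed, and Aen was also lost without any of uninjured replicates 1, 2, 4 and 5 and day 3 replicates 2, 4 and 5 (limma adjusted p from 0.0604 to 0.127).

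Gadd45a was the p53 target furthest above uninjured muscle at day 21, with 11.7, 11.2, 9.08, 6.17 and 7.09 FPKM in uninjured muscle and 102, 93.0, 82.1, 129 and 25.5 at day 21. No muscle overlapped, and replicate 5 of day 21 was again the lowest (log2 fold change 2.98, SE 0.62, limma adjusted p = 0.00960). The death receptor Eda2r, at 0.879, 1.47, 1.61, 1.76 and 1.04 FPKM in uninjured muscle, had 9.68, 10.7, 9.77, 5.04 and 3.98 at day 21 (1.84, SE 0.42, limma adjusted p = 0.0157, 5 of 5 above). Bbc3, which encodes the apoptosis inducer Puma, went from a mean of 0.930 to 2.99 FPKM (0.97, SE 0.25, limma adjusted p = 0.0319, 4 of 5 above). Leaving out replicate 2 of day 21 ended the Eda2r call (limma adjusted p = 0.0533), leaving out uninjured replicate 1, 4 or 5 or day 21 replicate 1, 2 or 3 ended that of Bbc3 (0.0527 to 0.108), and TPM rescaling ended both.

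**Figure D3:**
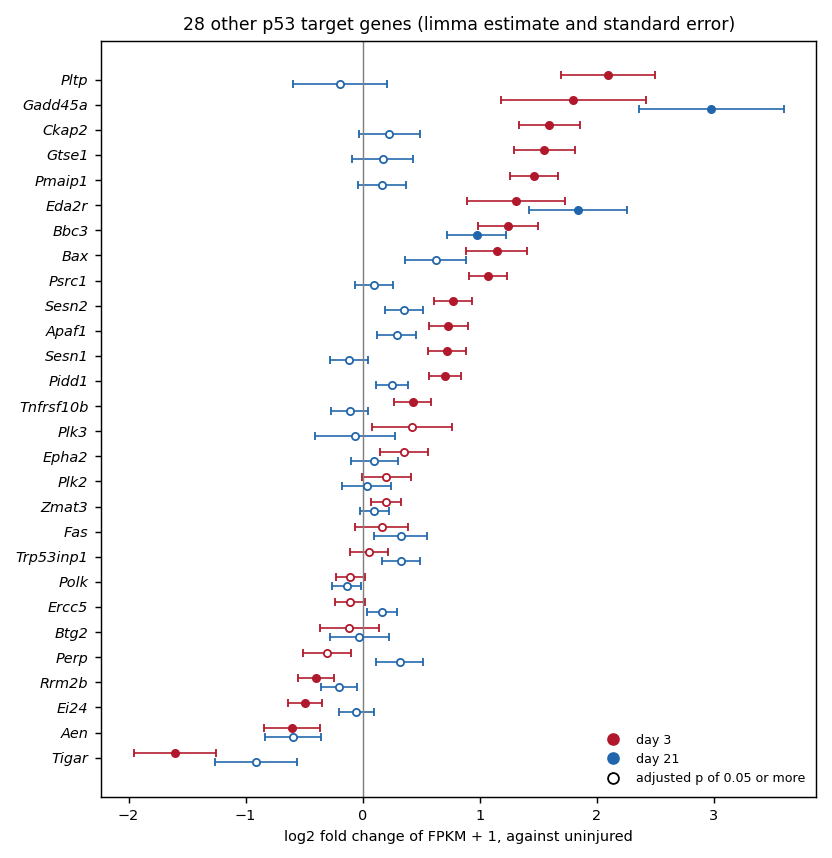
Log2 fold change of FPKM + 1 against uninjured muscle (horizontal axis) for 28 other p53 target genes, ordered by day 3, at day 3 and day 21 with the limma SE; filled points passed an adjusted p of 0.05. At day 3, 14 genes are filled on the right and 4 on the left (21 and 1 after TPM rescaling), and at day 21 the 3 filled genes are Gadd45a, Eda2r and Bbc3.

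Genes chosen for their link to Gdf15 were called in both directions. Of 6 genes of the stress response, Atf3 was called higher at day 3 (1.58, limma adjusted p = 0.000997, 5 of 5 above). Chac1 (-1.78, limma adjusted p = 0.00152, 5 of 5 below), Atf4 (-0.83, limma adjusted p = 0.00179, 5 of 5 below) and Ddit3 (-0.80, limma adjusted p = 0.0381, 4 of 5 below) were called lower, and after TPM rescaling Atf3 alone was called. The Ddit3 call was lost without uninjured replicate 1, 3 or 5 or day 3 replicate 3 or 4 (limma adjusted p from 0.0544 to 0.120). None was higher and 2 lower at day 7, 1 higher and 2 lower at day 14, and none called at day 21. Of 4 receptors of Gdf15 and the TGF-beta superfamily, Gfral, the Gdf15 receptor, had 0 FPKM in every muscle. Tgfbr2 (1.21, limma adjusted p = 0.000130, 5 of 5 above) and Tgfbr1 (0.70, limma adjusted p = 0.00700, 4 of 5 above) were called higher at days 3, 7 and 14, and none at day 21.

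Most of the kinases and cyclins on which the inhibitors act were called higher at day 3. Of 12 cyclins and CDKs, 10, 7 and 3 were called higher at days 3, 7 and 14, none at day 21 and none lower at any time, with median log2 fold changes of 1.26, 0.63, 0.42 and 0.19. Examples at day 3 were Ccnb2 (3.12), Ccna2 (2.30) and Cdk1 (2.26), the mitotic kinase, and 10 of the 12 were lower at day 21 than at day 3. All 12 proliferation markers were called higher at day 3, led by Birc5 (2.98), Plk1 (2.64) and Mki67 (2.23), 8 at day 7, 1 at day 14 and none at day 21, and all 12 were lower at day 21 than at day 3. On the deposited scale Cdkn1a was thus still called higher at day 21, where none of these 24 genes was. That Cdkn1a call was lost without any 1 of 8 of the 10 muscles compared, and with TPM, quantile normalization or no filter. Whether the course of Cdkn1a differed from theirs was not tested.

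Downstream of the INK4 proteins, 10 of 11 pocket proteins and E2F factors were tested. Of these, 5 were called higher and 2 lower at day 3, 6 and 1 at day 7, 4 and 1 at day 14, and 1 and 1 at day 21. Of all genes, 23.4%, 15%, 9.02% and 1.74% were called higher at the 4 times, and 19.8%, 14.4%, 11.3% and 1.69% lower. E2f1 (2.07), E2f2 (1.505) and E2f8 (1.32) were the largest increases at day 3, and E2f6 (-1.38) and Rbl2 (-0.58) the decreases, neither of which was called after TPM rescaling. At day 21 Rb1, the retinoblastoma protein gene, was called higher (0.83, limma adjusted p = 0.0217, 5 of 5 above) and E2f6 lower (-1.01, limma adjusted p = 0.0195, 5 of 5 below), and TPM rescaling ended both. Rb1 was lost without uninjured replicate 5 or day 21 replicate 1 or 2 (limma adjusted p from 0.0609 to 0.0688), E2f6 at day 21 without uninjured replicate 4 or 5 or day 21 replicate 2 or 5 (0.0514 to 0.0628), and Rbl2 at day 3 without uninjured replicate 2 or 4 or day 3 replicate 5 (0.0566 to 0.0626). Of 6 genes listed in connection with p27, 5 were tested. Cks1b (3.09) and Kpna2 (1.20) were called higher and Skp1a (-0.55) lower at day 3, the last reversed by TPM rescaling, while 1 was higher and 1 lower at days 7 and 14 and none at day 21.

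Other cell types present in muscle also moved with the groups, and their part in the results for the 10 genes was not tested. Of 6 fibroblast and fibro-adipogenic progenitor markers, 4, 5, 4 and 2 were called higher at the 4 times in turn, those of day 21 not after TPM rescaling or without some single libraries (7 of 10 for Col1a1, 3 of 10 for Col3a1), and Col1a1 was the most abundant. Of 6 neutrophil markers 3 were tested, with 3 higher at day 3, 2 at day 7 and none later, S100a8 being the most abundant. Endothelial markers were called lower, 3 of 5 at day 3, then 2, 1 and 1 (Kdr at day 21, -0.90), with Cdh5 the most abundant; at day 3 Cldn5 was lost without replicate 1 of day 3 and Tek without its replicate 3 or 4, and after TPM rescaling 1 was called lower and 1 higher at day 3, and Kdr was not called at day 21. Of 4 adipocyte markers 3 were tested, and all 3 were called higher at day 7 and none at the other times; none was called between day 7 and day 3 or day 14. At day 3 the smooth muscle list had 1 higher (Acta2) and 1 lower of 4 (Myh11, lost without any of 5 of the 10 muscles), the tendon list had Scx higher of 3 tested (1 at days 7 and 14 also), and the B cell list had Cd79b higher of 2 tested. No marker of Schwann cells (4), red blood cells (5), T and NK cells (1 of 5 tested) or keratinocytes (1 of 4 tested, Krt1 at 0 in every muscle) was called against uninjured muscle. Replicate 6 of day 7 held a Schwann cell marker sum of 741 FPKM, against 1.63 to 147 in the other 26 libraries.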

How the data were processed

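PolyA RNA of 27 whole muscles in 5 groups was sequenced as non-directional libraries. Per the submitters' processing notes reads were aligned with HISAT2 2.0.5 and counted with featureCounts 1.5.0-p3. The authors deposited FPKM per gene. The table names no genome build, and 98.3% of the 54409 genes found in GENCODE M21 (GRCm38) had the same coordinates. FPKM times gene length gave whole reads within 0.05 in every library, which served for depth, floors (3 reads) and voom. limma 3.58.1 in R 4.3.3 was fitted with a variance trend to log2(FPKM + 1), with a mean per group, for genes at an FPKM of 0.5 or more in no fewer than 5 samples, with Benjamini-Hochberg adjustment within each of 8 comparisons. Tables and figures were made with Python 3.11.15, numpy 2.4.6, pandas 2.3.3 and matplotlib 3.10.9. The procedure was tested on simulated data.

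The 10 genes and the 10 pathway and 14 cell type lists were chosen with earlier results of these data known. The results of 1 pathway list, senescence-associated genes, were left out of the text. Named are the 10 genes, Cdkn1c, Cdkn2d and Cdkn3, up to 3 called genes per list with the largest increase and up to 3 with the largest decrease at days 3 and 21, and the 3 genes most correlated with each of the 10. Alternatives were pseudocounts of 0.1 and 0.5, no filter, an FPKM minimum of 1, TPM, quantile normalization, no trend, only the 2 groups compared, replicate number or label letter as a replicate block, voom, and each library left out. Leaving out the replicate 5 libraries of days 3 and 7, or all libraries nearer to another group, was added after seeing the data.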

Additional observations from a re-analysis of the deposited data

Results flagged for a closer look

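In each of the 50 sets of samples formed by a gene and a group, the highest and lowest sample were compared with the rest by Dixon's gap ratio, and 5 sets held a sample that stood apart; chance gives about 1 in 20. Gdf15 gave 3 of them, at 0.322 FPKM in uninjured replicate 3, 0.482 in day 3 replicate 5, which lay below its group, and 6.48 in day 7 replicate 5. Cdkn2a stood apart in day 14 replicate 6, at 1.23 FPKM on 17 reads. Phlda3 was low in uninjured replicate 2, at 224 FPKM.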

How the results depend on the processing

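Each comparison was repeated under 13 alternatives, or 12 where neither day 3 nor day 7 was compared, and with each single library left out. The day 3 changes of Cdkn1a, Cdkn2a, Cdkn2c and Gdf15 kept their direction and their side of the threshold in all of them, as did Cdkn2c at day 7, Cdkn1a at days 7 and 14, and Cdkn2c and Gdf15 between days 3 and 21. Other results changed as follows, and the cause was not tested.

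After TPM rescaling the members called lower were 0 at day 3 and 0 at day 7, those called higher at day 21 were 0, those lower at day 14 against day 7 were 0, and those higher at day 21 against day 3 were 0. Reversed values were, for Cdkn1b, 0.26, 0.41 and 0.057 at days 3, 7 and 14 and -0.27 for day 21 against day 3, and for Cdkn2b, 0.49 at day 3 and 0.0066 at day 14. For Mdm2 they were 0.31 at day 3, 0.54 at day 7 and -0.096 at day 21 against day 3, and for Phlda3, 0.062 at day 7, 0.20 at day 14 and -0.033 at day 21 against day 3. Ccng1 was reversed to -0.090 at day 21 against day 3, and Trp53 was called lower there at -0.92. Genes called numbered 6582 at day 7, 72 at day 21, 3 at day 7 against day 3 and 5 at day 14 against day 7.

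With quantile normalization the members called lower at day 7 and higher at day 21 were 0, and 294 genes were called at day 21 and 12 at day 7 against day 3. Reversed values were -0.021 for Cdkn2b at day 7, 0.045 for Cdkn2b at day 21 against day 3, and 0.026 for Phlda3 at day 14. Without the variance trend, 2 members were called lower at day 7, 1 at day 14 and 0 at day 14 against day 7. With the 2 compared groups alone in the fit, those counts were 0, 1 and 0, and the genes called were 1477 at day 21, 1 at day 7 against day 3 and 5 at day 14 against day 7. voom on recovered reads called 2 members lower at day 7 and 0 at day 14 against day 7, with 282 genes at day 21 and 1 at day 7 against day 3.

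With no filter, 1 member was called higher at day 14, 0 at day 21 and 0 at day 21 against day 3, 0 were lower at day 14 against day 7, and the genes called were 247 at day 21, 17 at day 7 against day 3 and 11 at day 14 against day 7. A pseudocount of 0.1 called 1 member lower at day 14, 2 higher at day 21 and 0 lower at day 14 against day 7, with 1 gene at day 7 against day 3 and 18 at day 14 against day 7. A pseudocount of 0.5 called 0 members lower at day 14 against day 7. An FPKM minimum of 1 called 1 member lower at day 14 and 4 genes at day 7 against day 3.

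Whether replicate numbers pair the samples was not settled. Over 51 pairs with the same number the median correlation of residual profiles was -0.003, against 0.003 over 240 pairs with different numbers. For 11 of the 27 samples, however, the best match in another group had the same number. With replicate number as a block, 1 member was lower at day 14 and 0 at day 14 against day 7, with 795 genes at day 21 and 3 at day 7 against day 3. With the label letter as the block the counts were 1 and 0, with 1233 and 3 genes, and Cdkn2b at day 21 against day 3 was 0.038.

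Without the replicate 5 libraries of days 3 and 7, 0 members were lower at day 7, 2 were lower at day 7 against day 3, where 2265 genes were called, and 0 were lower at day 14 against day 7, where 28 genes were. Without the libraries nearer to another group, 2 members were lower at day 7, 2 lower at day 14, 2 higher at day 21, 1 higher and 2 lower at day 7 against day 3, and 2 higher at day 21 against day 3. Mdm2 was reversed to 0.20 at day 7 and Cdkn2b to 0.060 at day 14. Genes called were then 4751 at day 14, 950 at day 21, 2043 at day 7 against day 3, 127 at day 14 against day 7 and 28 at day 21 against day 14.

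Over single libraries left out, Cdkn2b ran from -0.18 to 0.10 at day 3, from -0.25 to 0.032 at day 21 and from -0.14 to 0.025 at day 21 against day 3. Mdm2 ran from -0.061 to 0.053 at day 14 and from -0.043 to 0.11 at day 21, and Cdkn2c from -0.00050 to 0.17 at day 21. Members called lower ranged from 0 to 2 at day 7, from 0 to 1 at day 14, from 0 to 2 at day 7 against day 3 and from 0 to 1 at day 14 against day 7. Members called higher ranged from 2 to 5 at day 7, from 1 to 3 at day 14, from 0 to 1 at day 21 and from 0 to 1 at day 21 against day 3. Genes called ranged from 1895 to 3203 at day 14, from 190 to 568 at day 21, from 2 to 1792 at day 7 against day 3, from 16 to 151 at day 14 against day 7 and from 2316 to 4076 at day 21 against day 3.

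At 14376395 to 24436763 reads per library, Cdkn2a, Cdkn2b and Gdf15 rest on few reads, 0 to 92 for Cdkn2a and 0 to 69 for Cdkn2b in a sample, and the floors given for Cdkn2a cover counting error only. RNA was measured in bulk, and the expression table holds no protein values. The cytokine array and the SP1 staining of the study were not used here.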
